A study of Mus musculus with 14 samples.

Results

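The genes of 10 early response transcription factors were examined for binding of MyoD and MyoG, factors that drive the muscle lineage, in mouse muscle stem cells (MuSCs). The genes were Jun, Junb, Jund, Fos, Fosb, Fosl1, Fosl2, Atf3, Egr1 and Myc, and a gene counted as bound where the authors' annotation gave it a listed peak. Of these 10 genes, 2 had a listed peak, and they held 4 of the 10303 peaks of the 12 libraries. Every sample came from wild-type mice in which tamoxifen (75 mg/kg on 5 days) had switched on mito-Dendra2, a fluorescent mitochondrial protein, through the Pax7-Cre(ERT2) driver, which is active in Pax7-expressing satellite cells and marks their progeny as well. Activated stem cells (ASCs) were sorted as CD34-, Dendra2+ and DAPI- from tibialis anterior muscle 2 days after injury with BaCl2, and quiescent stem cells (QSCs) as CD34+, Dendra2+ and DAPI- from the saline-injected muscle of the other leg. Chromatin immunoprecipitation and sequencing (ChIP-seq) gave 3 libraries for each antibody (MyoD or MyoG) and each state, 12 in all, named by state and antibody below as ASC MyoD, QSC MyoD and so on. The age and number of mice behind each library are not given in the sources used here, and 2 input samples were not analysed here.

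Jun and Fos proteins are basic leucine zipper factors that pair to form AP-1, which binds DNA elements related to TGANTCA. Their genes, together with Atf3, Egr1 and Myc, are transcribed soon after growth factor signals, stress or tissue dissociation, and several are known as markers of the earliest activation of satellite cells. MyoD and MyoG are basic helix-loop-helix factors that bind E-boxes (CANNTG), and MyoD has a preference for CAGCTG.

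A peak is a stretch of the genome with more ChIP reads than background, and its score, as deposited, is the negative log10 of its p-value multiplied by 10. No listed peak scored under 50.0. The lists held 2262 to 2652 peaks in ASC MyoD, 605 to 916 in ASC MyoG, 139 to 174 in QSC MyoD and 120 to 167 in QSC MyoG. Sequencing depth is unknown from peak lists, and scores depend on depth, so scores were compared only within a list, by rank or value, or as means over the same 3 libraries. Peak lists do not measure expression, so the labelled cell type could not be checked from them. MyoD regions at marker genes are given as description only, since a region near a gene does not show that the gene is expressed. Of 9 muscle lineage markers, 5 had an ASC-specific MyoD region (Myod1, Myog, Des, Chrna1 and Mymk), 1 more (Pax7) had a single peak, and Myf5, Cdh15 and Ckm had none. Of 9 markers of other cell types, 3 (Pecam1, Cdh5 and Rgs5) had an ASC-specific MyoD region and 1 more (Pdgfra) a single peak. Such a region was found at 5.92% of protein-coding genes. Cdh5 had 5.0 ASC MyoD peaks per library, while Myod1, the highest of the muscle lineage markers, had 3.33. A Cdh5 peak in intron 4 was called in replicate 1 only (chromosome 8, 104126961 to 104127825, score 58.1). All other Cdh5 regions were distal intergenic, from 103494447 to 103751119. The Myod1 regions were distal intergenic too, from 46348425 to 46366464 on chromosome 7. Peak numbers by gene name thus do not compare how strongly these genes are bound. The part of other cell types in the results was not tested. A region was called ASC-specific where at least 2 of 3 ASC libraries and no QSC library of the same antibody had a peak.

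Among the 10 genes, Fos was bound reproducibly by MyoD in ASCs, and Junb had a weak peak in a single library. The other 8 genes had no listed peak of either factor in either state. ASC MyoD replicate 1 held 2 of the 4 peaks, and replicates 2 and 3 held 1 each. No peak was given to any of the 10 genes in the 9 other libraries, where the shares of protein-coding genes with any peak were 3.36% for MyoG in ASCs, 1.02% for MyoD in QSCs and 1.27% for MyoG in QSCs. An ASC-specific MyoD region was thus found at 1 of 10 genes, while 5.92% of 21900 RefSeq protein-coding genes had one. Any ASC MyoD peak was found at 2 of 10 genes, while 10.7% of protein-coding genes had one. Neither count was tested, and nothing particular to the early response factors is read from them.

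**Figure D1:**
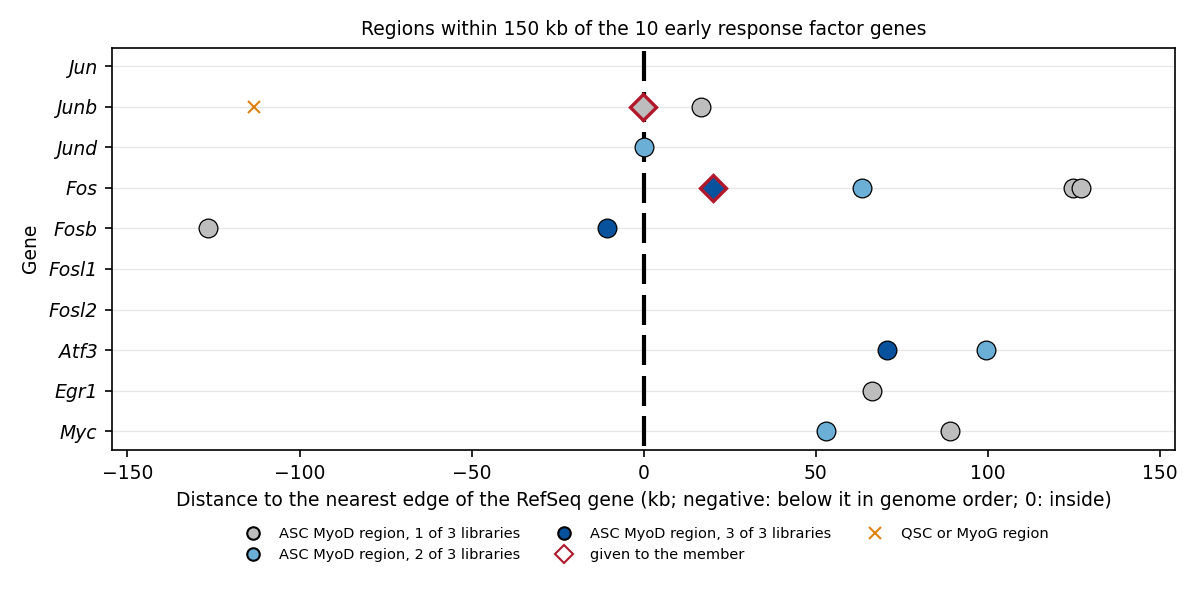
Regions within 150 kb of each of the 10 genes, by distance in kb from the nearest edge of the RefSeq gene (0: inside it, negative: below it in genome order). Point color gives the number of ASC MyoD libraries with a peak, red-edged diamonds are regions given to the gene itself, and the orange cross is a QSC MyoG region. Fos and Junb hold the 2 diamonds, Jund has a region of 2 libraries inside the gene, and Jun, Fosl1 and Fosl2 have no point.

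The empty groups have to be read against the length of their lists. In ASC MyoD, 4 of 7210 peaks (0.0555%, 95% Wilson interval 0.0216% to 0.143%, counting error only) were given to the 10 genes. Of these 4 peaks, 3 were calls of the same Fos region in different libraries. The interval treats such repeat calls as independent and so understates the uncertainty of the share. At that share, the 484 peaks of the QSC MyoD lists would hold 0.269 such peaks, the 449 of QSC MyoG 0.249 and the 2160 of ASC MyoG 1.2. A difference between states or between factors was therefore not detectable for these genes with lists of this length.

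Fos encodes the founding member of the Fos family, which cannot pair with itself and forms AP-1 with a Jun protein. Its peak (ENSMUSG00000021250) lay on chromosome 12 of the mm10 build in all 3 ASC MyoD libraries. The peak spanned 85497515 to 85498363 in replicate 1, 85497541 to 85498405 in replicate 2 and 85497591 to 85498358 in replicate 3. All 3 peaks shared a core of 768 bp, which was the whole of the replicate 3 peak. The authors' annotation of the region was distal intergenic. In the RefSeq annotation of the same build, Fos runs from 85473890 to 85477274 on the plus strand, so the region lay 23.6 to 24.5 kb past the start site and 20.2 kb past the end of the gene.

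The score at Fos was 129 in replicate 1, 93.9 in replicate 2 and 68.1 in replicate 3 (mean 97.2 ± 30.8, SD, n = 3). These scores ranked 436 of 2652, 656 of 2262 and 1172 of 2296 peaks, or the 83.6th, 71.0th and 49.0th percentile of their lists. Every ASC library had 1 peak and every QSC library none, so the states did not overlap in peak number. In an exact permutation test over libraries (two-sided), the p-value was 0.1, the smallest that 3 libraries against 3 allow, and 0.312 after Benjamini-Hochberg adjustment over the 3223 genes with a MyoD peak. Among those genes 31.7% showed the same separation, so it is common in these lists. With a score of at least 80 the peak remained in replicates 1 and 2 only (exact permutation p-value 0.4).

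The Fos region scored near the median of comparable regions. Of the 1101 MyoD regions with a peak in all 3 ASC and no QSC libraries (24.5% of all MyoD regions), 49.2% had a lower mean score than the region at Fos, and their median was 98.3. Its class, distal intergenic, was also the most frequent, with 35.5% of the 1976 ASC-specific MyoD regions (44.0% of all MyoD regions). An identical pattern of peak numbers over the 12 libraries (summed absolute difference of 0) was found at 521 of 4383 other genes. The members of this group with the highest mean percentile of score were Arhgef2, Hsf1, Gm5160, Cerox1 and Plec, with values from 98.1 to 99.95. The mean percentile of Fos was 67.9, above that of 57.6% of the group.

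**Figure D2:**
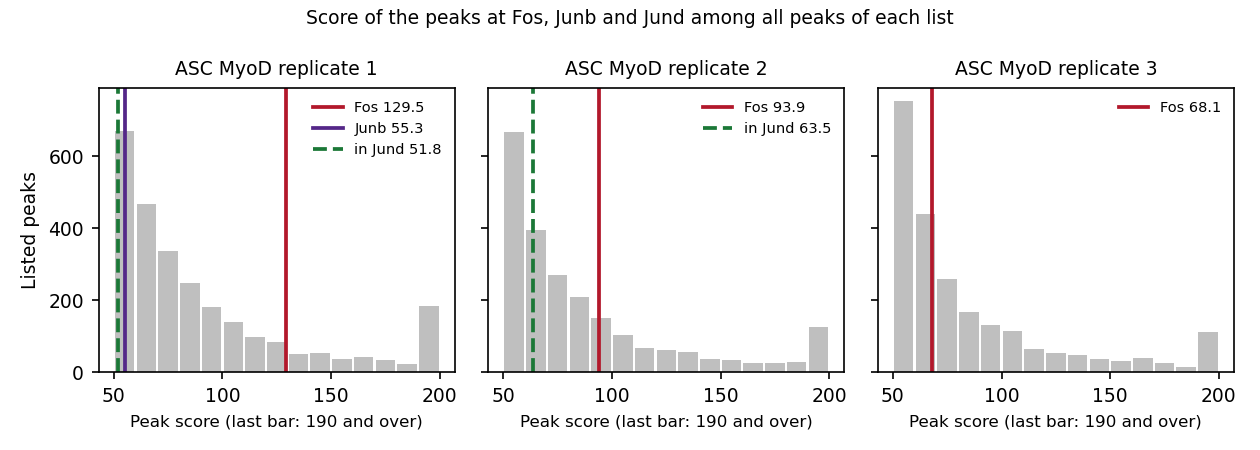
Histogram of peak scores in each ASC MyoD list (bars, number of peaks per 10 score units, the last bar holding scores of 190 and over), with vertical lines for the peaks at Fos, at Junb and inside Jund. Fos lies at 129, 93.9 and 68.1, while the Junb peak (55.3) and the Jund peaks (51.8 and 63.5) lie near the left edge of the lists.

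Fos has other AP-1 family genes as neighbors on chromosome 12. Jdp2, which encodes a Jun dimerization partner that acts mainly as a repressor, begins 125 kb past the Fos start site, and Batf, which encodes a leucine zipper partner of Jun proteins, begins at 213 kb. Between Fos and Jdp2, a second ASC-specific MyoD region (85540809 to 85541866) was given to Jdp2, with scores of 81.0 in replicate 1 and 106 in replicate 3 and no peak in replicate 2. Single-library peaks lay near the Jdp2 promoter (replicate 3, 59.5), in intron 1 of Jdp2 (replicate 2, 57.0) and in intron 2 of Batf (replicate 1, 55.9). Only the region given to Fos was present in all 3 ASC MyoD libraries along this stretch, and none of the MyoG or QSC libraries had a peak there.

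**Figure D3:**
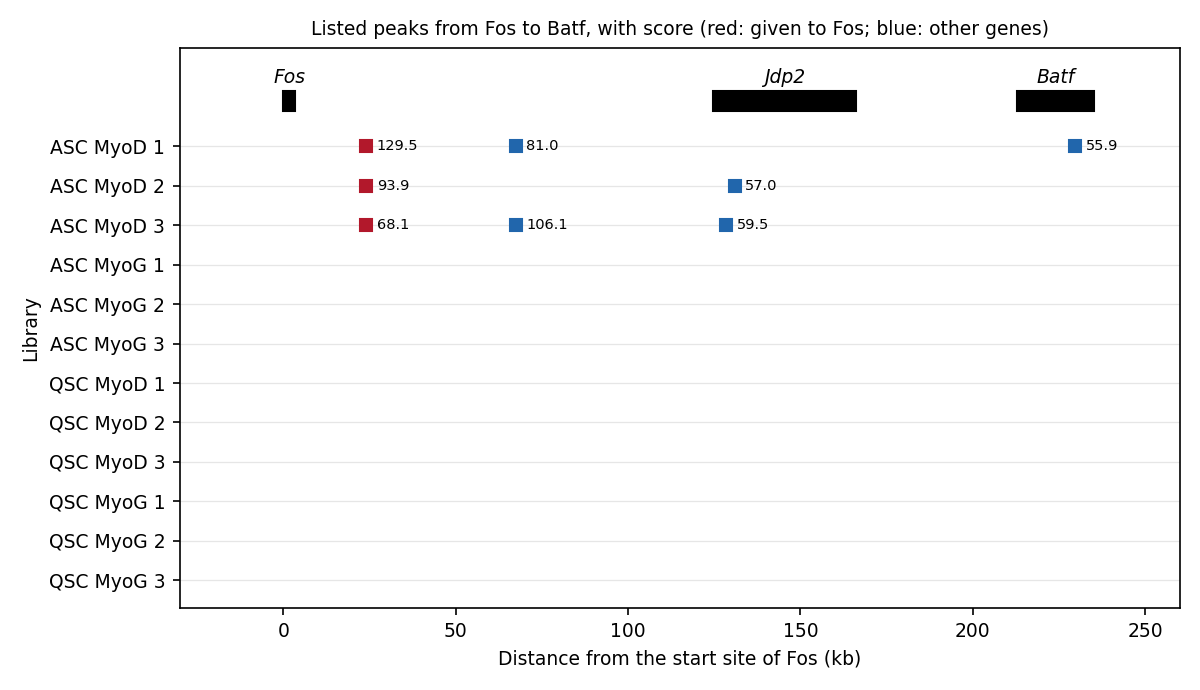
Listed peaks in each of the 12 libraries by distance from the Fos start site in kb, with the score beside each peak and RefSeq genes as black boxes. The red peaks, given to Fos, line up at about 24 kb in the 3 ASC MyoD libraries, and the rows of the other 9 libraries are empty.

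Junb encodes a Jun family subunit with a generally weaker activating capacity than c-Jun. Its peak (ENSMUSG00000052837, chromosome 8, 84975724 to 84976784) was called in ASC MyoD replicate 1 only, with a score of 55.3 that ranked 2261 of 2652 peaks (14.7th percentile). The exact permutation p-value for its peak number was 1.0 (adjusted 1.0). The authors' annotation was a promoter at 1 to 2 kb. Junb lies on the minus strand (84976909 to 84978748), and the peak covered 1.96 to 3.02 kb downstream of the start site, beginning 125 bp beyond the far end of the gene. A separate peak 16.6 kb upstream, in exon 11 of Hook2, was called in ASC MyoD replicate 2 only (score 50.4). No region near Junb was thus called in more than 1 library, and without replicate 1 only Fos had a peak among the 10 genes.

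Jund, the Jun family member that is broadly expressed in resting cells, had no peak under its own name. A MyoD region inside the RefSeq span of Jund (chromosome 8, 70697739 to 70700616) was given by the authors' annotation to the overlapping Gm11175 (ENSMUSG00000080058) as a promoter within 1 kb. It covered 70699467 to 70700453, or 1.73 to 2.71 kb past the Jund start site. Its score was 51.8 in ASC MyoD replicate 1 and 63.5 in replicate 2 (5.07th and 36.5th percentile), with no peak in replicate 3 or in any QSC or MyoG library. By position the region was ASC-specific among the listed peaks, whereas by the gene name in the lists Jund counted as not bound. Called but unlisted QSC MyoD peaks near Jund are possible, as given below. This region was singled out after its values had been seen.

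Jun, which encodes the c-Jun subunit that gives AP-1 much of its activating capacity, had no listed peak nearby. The nearest ASC MyoD peak was 161 kb from the gene (chromosome 4, 95049036 to 95052222), and the nearest peaks in the other 2 libraries were at 296 kb. Fosl1 and Fosl2 encode Fra-1 and Fra-2, Fos relatives that lack the strong activation region of Fos and are induced later. The nearest ASC MyoD peak was 254 to 354 kb from Fosl1 (chromosome 19, 5447698 to 5455938) and 168 to 185 kb from Fosl2 (chromosome 5, 32136472 to 32157840), depending on the library. Fosb, a Fos relative on chromosome 7 (19302696 to 19310118), had no peak given to it. A MyoD region 10.7 kb from it, at the promoter of Rtn2 (19291012 to 19292017), was called in all 3 ASC libraries with scores of 113, 95.0 and 171.

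Atf3 encodes a stress-induced factor of the ATF family that can pair with Jun proteins. A MyoD region 70.9 kb from it (chromosome 1, 191254184 to 191255205) had peaks in all 3 ASC libraries with scores of 180, 121 and 155, and was given to D730003I15Rik. A second region 99.6 kb away (191282924 to 191283787), given to Nenf, was called in replicates 1 and 2 with scores of 112 and 63.8. Egr1 encodes a zinc finger factor of the early growth response family. A single peak lay 66.5 kb from it in ASC MyoD replicate 1, at the promoter of Etf1, with a score of 50.0. Myc encodes a basic helix-loop-helix leucine zipper factor that pairs with Max and promotes growth and proliferation. Its nearest MyoD region, 52.9 kb away in intron 1 of the neighboring noncoding gene Pvt1 (chromosome 15, 62043270 to 62044260), was called in replicates 1 and 2 with scores of 70.3 and 51.3. Whether any of these regions acts on the gene they lie near was not tested.

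Counted by distance instead of gene name, ASC-specific MyoD regions lay inside 1 of the 10 genes (Jund), against 4.62% of all protein-coding genes. Within 10 kb the count was again 1, against 6.43%. Within 25 kb it was 3 (Fos, Fosb and Jund), against 9.07%, and within 50 kb it was 3, against 13.5%. Within 100 kb it was 5 (with Atf3 and Myc), against 21.6%. Counts by distance were added after the data had been seen and carry no test. No ASC-specific MyoG region lay within 100 kb of any of the 10 genes, where the background was 0.717%.

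Missing peaks were also checked against peaks that the lists leave out. Peaks are numbered in genome order in each list, and a skipped number was read as a peak that had been called but not listed. In the 3 ASC MyoD libraries, no number was skipped between the listed peaks on either side of a gene, for each of the 10 genes. For the 9 other libraries, no number was skipped in 48 of 90 combinations of gene and library, and at least 1 was skipped in 19. In the remaining 23 the gene lacked a listed peak on at least 1 side. At Jund, 3, 2 and 1 numbers were skipped in QSC MyoD replicates 1, 2 and 3. In replicate 1 the flanking listed peaks lay 1277 kb below and 486 kb above the gene. Whether an unlisted QSC peak overlapped the region inside Jund is unknown. The stretch between the flanking peaks, without the length of the gene, had a median of 0.673 Mb in ASC MyoD, 13.3 Mb in ASC MyoG, 35.5 Mb in QSC MyoD and 32.6 Mb in QSC MyoG. Shorter lists leave longer stretches in which a number can be skipped, so the groups cannot be compared by this check.

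The promoters of Fos, Junb and Jund are shown because these genes had a MyoD peak in or near them and each promoter holds a CAGCTG E-box. Being chosen in part by the motif, they do not link peak and motif. Fosb, with a MyoD region 10.7 kb away in all 3 ASC libraries, has 2 E-boxes in the same stretch, both CAGGTG. The 250 bases before the start site are given from RefSeq (GRCm38.p6, the same assembly as mm10) on the strand of the gene, with every CANNTG in capitals. No MyoD or MyoG peak overlapped any of them.
Fos, chr12:85473640-85473889, plus strand: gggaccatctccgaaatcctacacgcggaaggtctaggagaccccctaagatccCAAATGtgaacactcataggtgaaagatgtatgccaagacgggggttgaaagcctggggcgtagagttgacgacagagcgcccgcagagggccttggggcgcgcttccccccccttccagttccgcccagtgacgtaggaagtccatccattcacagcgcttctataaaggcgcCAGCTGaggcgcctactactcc
Junb, chr8:84978749-84978998, minus strand: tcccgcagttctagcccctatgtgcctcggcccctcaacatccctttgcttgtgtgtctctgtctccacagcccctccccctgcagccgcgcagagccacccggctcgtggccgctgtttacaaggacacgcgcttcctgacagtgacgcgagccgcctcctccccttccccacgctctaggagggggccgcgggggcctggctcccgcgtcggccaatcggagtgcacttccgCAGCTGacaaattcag
Jund, chr8:70697489-70697738, plus strand: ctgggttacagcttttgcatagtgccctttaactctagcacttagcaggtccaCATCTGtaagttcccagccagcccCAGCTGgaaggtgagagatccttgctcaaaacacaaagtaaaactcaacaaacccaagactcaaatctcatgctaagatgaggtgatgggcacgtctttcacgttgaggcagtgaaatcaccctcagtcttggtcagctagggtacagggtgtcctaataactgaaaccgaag

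Relative to the start site, the CAGCTG begins at position -22 in Fos, -16 in Junb and -173 in Jund. Promoter windows (250 bases before to 50 after the start site) were at hand for 7 of the 10 genes, namely Jun, Junb, Jund, Fos, Fosb, Fosl2 and Atf3. CANNTG, which reads the same on both strands, occurred in 6 of the 7, with Fosl2 as the exception, and in 72.3% of 32851 windows of all genes. CAGCTG, a subset of CANNTG, occurred in 3 of the 7 and in 16.3% of all windows. Among the 133 windows that lay wholly inside an ASC-specific MyoD region, 92.5% held CANNTG and 58.6% held CAGCTG. The AP-1 motif TGANTCA, also the same on both strands, occurred in none of the 7, in 7.81% of all windows and in 9.77% of those inside MyoD regions. None of the 7 windows had a listed peak over it, and a match of letters is not a binding site. The sequence under the Fos region itself was not analysed here.

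Genes that work with these factors were examined from lists of names. Of 19 AP-1 partners, 3 had an ASC-specific MyoD region (15.8%), namely Jdp2, Atf4 and Atf6. Of 19 MAP kinase pathway genes, which signal to AP-1 from the cell surface, 2 did (10.5%), Map2k2 and Map2k4. Of 22 other early response genes, 4 did (18.2%), namely Klf10, Btg2, Nr4a3 and Gadd45b. Of 11 genes of the Myc network, 2 did (18.2%), Max and Mycn. The background for each of these counts was the 5.92% of protein-coding genes given above. None of these counts was tested, and nothing particular to the lists is read from them. Regions called in 2 ASC libraries ranged in mean score from Gadd45b (51.84 and 52.54) to Nr4a3 (143.69 and 71.54). No gene of these lists had an ASC-specific MyoG region, where the background was 0.187%, or a QSC MyoD peak.

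Within these lists, MyoD regions in all 3 ASC libraries were found at 4 genes. At Btg2, an antiproliferative gene, a distal region had scores of 72.3, 153 and 139. At Klf10, a zinc finger gene induced by TGF-β, a promoter region had scores of 103, 88.4 and 79.9. At Max, the obligate partner of Myc, a distal region had scores of 73.5, 102 and 75.0. At Map2k2, a kinase that activates ERK, a promoter region had scores of 108, 54.8 and 70.6. The score at Fos was above those of all 4 genes in replicate 1 (129), between them in replicate 2 (93.9) and below all 4 in replicate 3 (68.1). Map2k2, Map2k4, Max and Mapk10 each had 1 QSC MyoG peak in a single library, with scores from 50.95 to 60.84. Fos and Junb had none, and any QSC MyoG peak was found at only 1.27% of protein-coding genes. Mapk10 had no MyoD peak. In ASC MyoG replicate 1, Mapk10 had peaks with scores of 54.99 and 50.04, and Nr4a1 had a peak with a score of 52.03.

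**Figure D4:**
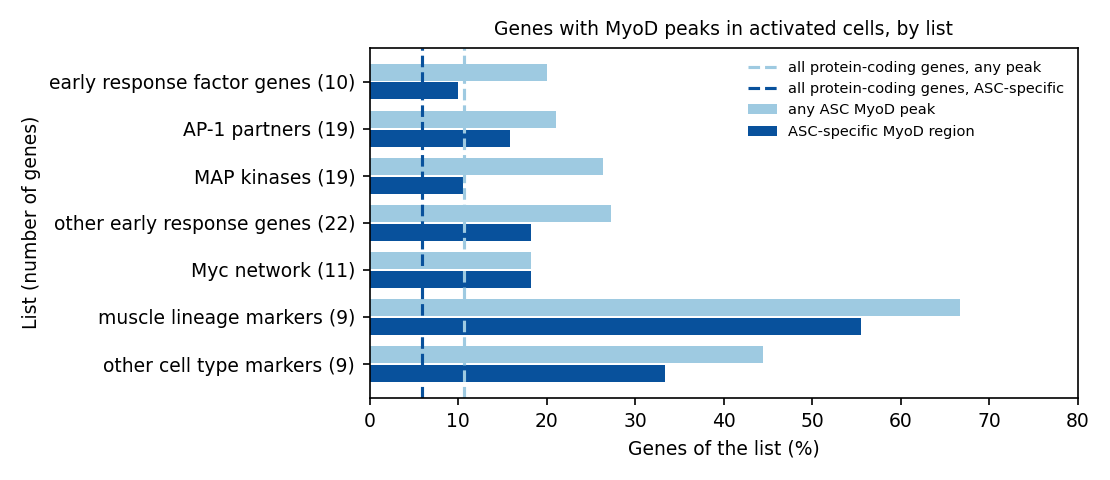
Percent of the genes of each list with any ASC MyoD peak (light bars) and with an ASC-specific MyoD region (dark bars), with the number of genes in brackets and dashed lines for all protein-coding genes (10.7% and 5.92%). The early response factor genes reach 20.0% and 10.0%, which are 2 genes and 1 gene of 10.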

How the data were processed

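Peak lists of 12 ChIP-seq libraries were analysed. The authors called peaks in each library separately and deposited for each peak its position, a score (negative log10 of the p-value, multiplied by 10), a gene and a gene part. The submitters' processing notes name BWA 0.7.5, MACS, deepTools 3.5.0 and the mm10 build, while thresholds, use of the inputs and filters are not given in the sources used here. Scores are not scaled for depth, so a longer list can hold more genes. Groups and replicate numbers came from the sample titles. Peaks of the 6 libraries of an antibody that overlapped by at least 1 bp were merged into regions (Python 3.11.15, pandas 2.3.3). Peak numbers per gene were compared by an exact two-sided permutation test over libraries with Benjamini-Hochberg adjustment over all genes with a peak. P-values set the observed split of the 6 libraries against all possible splits. They do not measure variation between mice, since the number of mice behind each library is not given. Positions of genes and promoter sequences came from RefSeq (GRCm38.p6), in which all 10 genes matched by symbol. Region calling was tested on simulated peak lists.

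The 10 genes and the lists of related genes were chosen with earlier results of these data known. All 10 genes are named. Regions are given in full where at least 2 libraries of a group had a peak, or where a gene had no other region. Up to 6 genes of a list and 5 genes with a pattern like that of Fos are named. Alternatives were a score of at least 80, a gap of up to 500 bp, a mutual overlap of 50%, a peak in 1 or in all 3 libraries, merging within a list, omission of distal intergenic peaks, leaving out replicates and pairing by replicate number.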

Additional observations from a re-analysis of the deposited data

How the results depend on the processing

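The number of genes with an ASC-specific MyoD region (1, Fos) was 2 with a peak in at least 1 library and 0 without distal intergenic peaks. By distance, in place of gene name, it was 1 inside the gene or within 10 kb, where the gene was Jund and not Fos. It was 3 within 25 kb, 3 within 50 kb and 5 within 100 kb. The distance settings were chosen after seeing the data. Peaks per library given to the 10 genes exceeded QSC MyoD, and likewise ASC MyoG, by 1.33 in ASC MyoD, by 0.667 at a score of at least 80 and by 0.333 without distal intergenic peaks, and leaving out a replicate gave 1.0 to 1.5. The number of genes whose ASC MyoD libraries all exceeded the QSC MyoD libraries was 1, and 0 under both of these settings. The median score percentile of the 4 peaks was 60.0, then 46.2 at the stricter score, where the 2 Fos peaks left were ranked only among peaks of that score or more, and 14.6 without distal intergenic peaks, where only the Junb peak was left. The counts by gene name fell to 0 there because Fos had no other peak.

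Leaving out each replicate in turn kept the count of genes with an ASC-specific MyoD region at 1. It could not do otherwise, because Fos had a peak in all 3 ASC and no QSC libraries and Junb in only 1 library. The 37 alternative values for MyoG alone were all 0. In total, 94 of 109 alternative values were unchanged or within the spread between replicates, 15 moved and none changed sign. This tally does not measure robustness, because many of the values could not move. All of these values refer to the early response factor genes, and no MyoG or QSC peak was given to any of them. Counts of MyoG by gene name thus could not leave 0, and no difference could turn negative. Leaving out a MyoG or QSC library could change nothing. The 94 include losing the only Junb peak (0.333 to 0 per library) at the stricter score or without ASC MyoD replicate 1. They also include the counts inside the gene and within 10 kb, where the 1 gene was Jund instead of Fos. With a replicate block (differences within the same replicate number), the difference at Fos was again 1 peak per library and the exact sign-flip test gave p = 0.25, its smallest possible value, and the block changed no count. The numbers were not taken as pairs, and whether they are pairs is unknown. Deviations of same-numbered ASC and QSC MyoD libraries from their group means had correlations of 0.00508 to 0.00772 over 4384 genes. Those of libraries with different numbers were -0.0115 to 0.00631. The QSC MyoD lists held only 139 to 174 peaks, too few for these correlations to show or exclude pairing. Read depth is unknown, so a gene without a listed peak is not shown to be unbound, and the short QSC lists limit every comparison of states.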
